A study of Mus musculus with 15 samples.

Results

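Nucleosome occupancy was examined at the promoters of the replication-dependent histone genes, the genes that supply the H1, H2A, H2B, H3 and H4 proteins when DNA is copied. Members were taken by symbol (older names beginning Hist1h, Hist2h, Hist3h or Hist4h), which gave 73 of the 25881 annotated start rows for 66 gene symbols: 6 rows for H1, 22 for H2A, 19 for H2B, 12 for H3 and 14 for H4. Of these, 69 rows also carried a matching current name and 4 (Hist3h2ba, Hist3h2a, Hist1h1t and Hist4h4) matched by the older name only. A total of 71 had a coverage score above 100, the deposited measure of fragments around the start, and these are the promoters counted below, beside 13559 promoters of all genes above the same score. On the mm9 build, 58 rows lie on chromosome 13 (starts from 21808012 to 24026332), 12 on chromosome 3, 2 on chromosome 11 and 1 on chromosome 6. A row on chromosome 11 at a position that the GENCODE annotation gives to the pseudogene Hist3h2bb-ps had no matched symbol and was not counted.

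The occupancies come from ChIP-MNase, in which large cross-linked chromatin pieces (4% formaldehyde) are recovered with an antibody and digested with micrococcal nuclease on the beads. The 15 libraries comprised 4 H3K4me1 sets that each pool 2 replicates, 8 single H3K4me1 libraries, 2 pol-II S7P libraries and 1 pol-II S5P library. The pooled sets are DCs and 3T3 fibroblasts, each without stimulus and stimulated for 1 h, with LPS (100 ng/ml) in DCs and TNF-α (5 ng/ml) in fibroblasts. The single H3K4me1 libraries are fibroblasts, control or BAF knockdown, without stimulus or with the same TNF-α dose and time, in 2 replicates each, and the pol-II libraries are TNF-α-treated fibroblasts without knockdown. The DCs were differentiated in vitro from mouse bone marrow progenitor lines with GM-CSF, 3T3 is an immortalised line, and the BAF knockdown rests on 1 shRNA against both Brg1 and Brm, stably expressed from the U6 promoter of a retroviral vector in cells sorted for GFP, so that Brg1 and Brm cannot be told apart. The study describes its replicates as biological, while no label ties a library to a culture, and p-values measure the spread between these libraries. Among the annotated FPKM values, 15 start rows of 12 DC markers had a median of 3.27 in DCs and 0.0421 in fibroblasts, and 7 start rows of fibroblast markers had medians of 0.0144 and 107, which is the order their labels give, although the scales of the cell-types differ.

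Replication-dependent histone genes are short, mostly lack introns and stand in clusters, where H2A and H2B genes often share a bidirectional promoter. Their mRNAs end in a stem-loop in place of a poly(A) tail and are made mainly in S phase, when new chromatin needs packaging. Active promoters commonly hold a nucleosome-depleted region (NDR) just upstream of the start, flanked by nucleosomes at regular positions. The linker histone H1 binds the nucleosome where DNA enters and leaves it, and H2A, H2B, H3 and H4 form its core.

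The nearest annotated transcript had a single exon at 67 of the 73 rows and 2 exons at the other 6, and its coding length ran from 309 to 669 bases. Another annotated start lay within 1 kb of 38 members, in 37 cases that of another histone gene. There were 16 pairs of members on opposite strands within 1 kb, of which 15 stood head to head and 14 paired an H2A with an H2B gene, at a median distance of 279 bp. The 2 kb windows of such partners overlap, so their values are not independent.

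Sequences are shown for the closest head-to-head pairs and for the H1, H3 and H4 promoters with the lowest and the highest NDR values, because these are the windows on which the occupancies below are measured. All were read from mm9. Capitals mark matches on either strand to TATAAA (letters of a TATA box), to CCAAT (a box bound by NF-Y), to ATTTGCAT (the octamer bound by POU factors) or to AAACACA (an element named in H1 promoters), and an occurrence of these letters is a description only.
Hist1h2bq start 1 (left) to Hist1h2ao start 1 (right), chr13:21902068-21902237, plus strand: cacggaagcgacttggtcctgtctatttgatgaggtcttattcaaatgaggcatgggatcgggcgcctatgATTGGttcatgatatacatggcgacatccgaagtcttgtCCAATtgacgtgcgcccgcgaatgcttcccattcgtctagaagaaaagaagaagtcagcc
Hist1h2ae (left) to Hist1h2bg (right), chr13:23663089-23663270, plus strand: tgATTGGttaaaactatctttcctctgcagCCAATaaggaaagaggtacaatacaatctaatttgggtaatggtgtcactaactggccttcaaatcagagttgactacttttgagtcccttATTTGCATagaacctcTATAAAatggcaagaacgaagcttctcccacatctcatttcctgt
Hist1h1e, lowest NDR of H1, chr13:23714428-23714577, minus strand: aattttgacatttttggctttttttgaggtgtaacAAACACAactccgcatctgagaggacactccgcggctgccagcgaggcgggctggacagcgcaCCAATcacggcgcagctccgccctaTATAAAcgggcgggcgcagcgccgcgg
Hist1h1t, highest NDR of H1, chr13:23787531-23787680, plus strand: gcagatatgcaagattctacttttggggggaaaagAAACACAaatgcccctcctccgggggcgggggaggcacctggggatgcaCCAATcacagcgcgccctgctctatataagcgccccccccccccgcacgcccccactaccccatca
Hist1h3c, lowest NDR of H3, chr13:23837391-23837540, minus strand: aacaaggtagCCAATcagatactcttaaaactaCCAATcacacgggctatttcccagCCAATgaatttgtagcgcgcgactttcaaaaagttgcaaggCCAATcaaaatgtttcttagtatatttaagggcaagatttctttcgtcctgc
Hist1h3f, highest NDR of H3, chr13:23635772-23635921, plus strand: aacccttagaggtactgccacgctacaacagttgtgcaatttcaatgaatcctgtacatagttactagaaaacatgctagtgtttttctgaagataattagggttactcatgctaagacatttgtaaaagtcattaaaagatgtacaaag
Hist1h4b, lowest NDR of H4, chr13:23848741-23848890, plus strand: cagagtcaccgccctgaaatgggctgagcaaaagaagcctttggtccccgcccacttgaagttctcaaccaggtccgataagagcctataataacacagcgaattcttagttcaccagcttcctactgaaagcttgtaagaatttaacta
Hist1h4k, highest NDR of H4, chr13:21842375-21842524, minus strand: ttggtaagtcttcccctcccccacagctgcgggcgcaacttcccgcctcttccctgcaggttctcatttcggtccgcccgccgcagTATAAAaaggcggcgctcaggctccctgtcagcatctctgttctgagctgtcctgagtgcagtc

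The closest pair occurs as an inverted copy, Hist1h2ao start 2 and Hist1h2bq start 2 (chr13:21925444-21925613), which shares an unbroken run of 169 of 170 bases with the reverse complement of the first. In the 150 bases upstream of the start, CCAAT occurred at 56 of 71 members (78.9%) and 26.3% of all promoters, and more than once at 36 members (50.7% against 7.38%). TATAAA occurred at 30 members (42.3%) and 5.42% of all promoters, ATTTGCAT at 10 (14.1% and 0.907%) and AAACACA at 6 (8.45% and 2.41%). The families differed in what they carried. All 21 H2A and all 6 H1 windows held CCAAT, whereas 4 of 14 H4 windows did. AAACACA was found at 4 of 6 H1 windows and the octamer at 4 H2A and 6 H2B windows only. Among the promoters shown, Hist1h3c, with the lowest NDR of H3, holds 4 CCAAT matches and Hist1h3f, with the highest, holds none of the 4 motifs. Hist1h1e and Hist1h1t both hold CCAAT and AAACACA, and of these 2 only Hist1h1e holds TATAAA. For H4 the order is the other way, as Hist1h4b, with the lowest NDR, holds none of the motifs and Hist1h4k, with the highest, holds TATAAA. Hist1h3c, Hist1h3f and Hist1h4k do not pass the limit on placeable fragments described below, so their NDR values may be those of several genes. Whether motifs go with the NDR was not tested. Median GC content of these windows was 46.7% at members and 60% at all promoters.

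Because histone genes resemble each other, the share of fragments that could be assigned to 1 place was computed first. Reads of 50 bases at the ends of 150 bp fragments were aligned with up to 2 mismatches to all sequence within 10 kb of an annotated start, and a bin is called placeable to the extent that such reads had 1 place. At all promoters 95.0% of fragments from −200 to −100 bp and 93.6% of those from 200 to 300 bp were placeable. At histone promoters these shares were 77.9% and 21.4%. From 200 to 300 bp H2A was least placeable (8.75%), followed by H3 (9.0%), H2B (23.5%), H4 (31.4%) and H1 (60.7%). H1 promoters, whose proteins diverge more, were 100% placeable upstream. A second trough at −600 to −400 bp (57.7% to 59.1%) was deepest for H2A and H2B (36.4% to 40.1%).

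**Figure D1:**
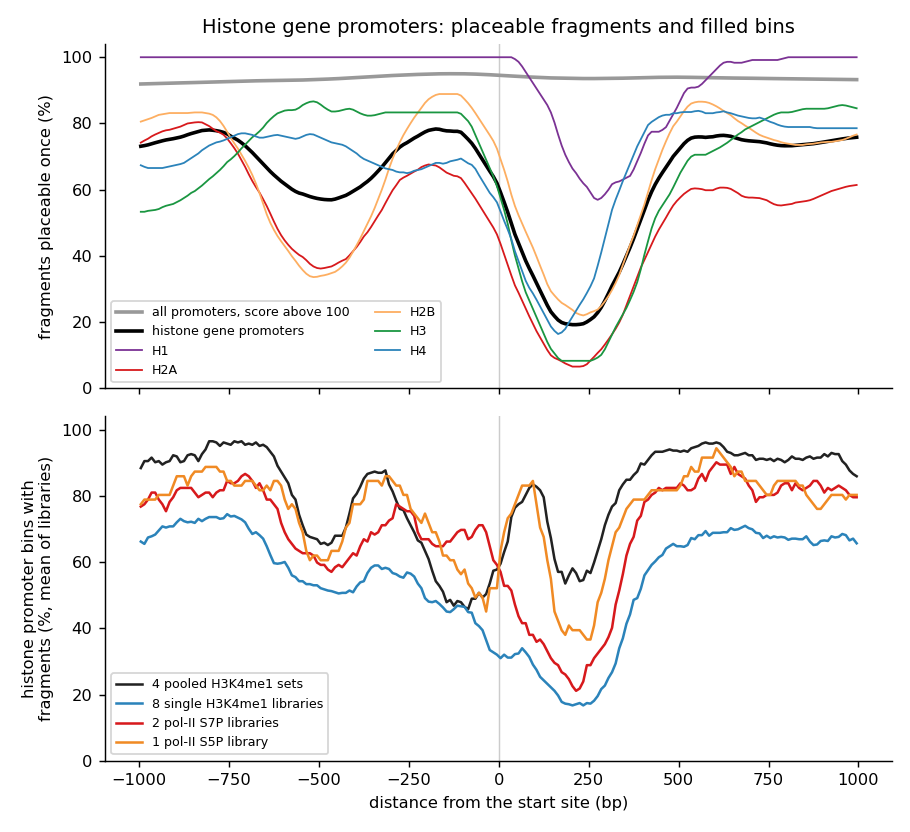
Share of placeable fragments (upper plot, %) and share of 10 bp bins of histone promoters that hold any fragment (lower plot, %) against distance from the start (bp), for 71 histone promoters, their families and 13559 promoters of all genes. From 200 to 300 bp 21.4% of fragments were placeable, and there single H3K4me1 libraries hold fragments in 18.5% of bins and the pooled sets in 59.9%.

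The kinds of library differed in how they treated such sequence. In member bins under 10% placeable, the 4 pooled sets held fragments in 63.4% to 68.3% of bins, the 8 single H3K4me1 libraries in 0.0602% to 0.783%, the S7P libraries in 17.6% and 21.7%, and the S5P library in 16.6%. In bins 10 to 50% placeable the shares were 73.9% to 83.3%, 14.5% to 37.9%, 45.1% and 53.3%, and 92.3%. In bins at least 90% placeable the shares were 85.8% to 91.2%, 75.6% to 91.1%, 90.8% and 93.9%, and 93.3%. These classes rest on single reads, while the pol-II libraries are paired-end. A total of 8 members, all in the Hist1h2bq to Hist1h4n block and its inverted copy, held no fragment in any of the 8 single H3K4me1 libraries and held fragments in all pooled sets. At the 4 genes of this block with a start in both copies, the profiles of the copies correlated across bins with r of 0.803 to 0.999 in the pooled sets (16 comparisons, median 0.999), and their NDR values differed by at most 0.12 on the log2 scale. In the S7P libraries r was 0.264 to 0.902 (8 comparisons, median 0.755) and in the S5P library −0.148 to 0.0799 over the 4 pairs. Copied genes on chromosome 3 had r between 0.805 and 0.912 in pooled sets, between −0.0411 and 0.362 with S7P and between 0.466 and 0.795 with S5P. Pooled values in such bins therefore cannot be assigned to 1 copy, and a fold or level there is that of several genes together. Results are given for all 71 members and again for the 20 members whose NDR window and upstream flank were both at least 90% placeable (6 of H1, 2 of H2A, 3 of H2B, 3 of H3 and 6 of H4), beside the 10907 promoters of all genes that pass the same limit.

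The NDR log2 ratio compares mean occupancy from −150 to 0 bp with that from −1000 to −500 bp after adding 0.1 to both, and a promoter is called depleted below −1. In the pooled sets a larger share of histone promoters than of all promoters was depleted. In non-stimulated DCs 38 of 71 members were depleted (53.5%), beside 36.8% of all promoters. After LPS the count was 44 (62.0%, beside 39.8%). In fibroblasts it was 38 (53.5%, beside 38.3%) without stimulus and 45 (63.4%, beside 42.6%) after TNF-α. The S5P library had 45 members depleted (63.4%, beside 48.3%). Median NDR log2 ratios of members were −1.09, −1.31, −1.20, −1.36 and −1.67 in these 5 data sets, and those of all promoters −0.56, −0.62, −0.59, −0.67 and −0.91. The share depends on the amount added to both windows: with 0.5 in place of 0.1 it was 35.2% of members and 22.9% of all promoters in non-stimulated DCs, 35.2% and 26.8% in non-stimulated fibroblasts, and 42.3% and 32.6% in fibroblasts after TNF-α. With a window from −200 to 50 bp it was 33.8% and 25% in non-stimulated DCs.

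Among the 20 placeable members, 15 were depleted in non-stimulated DCs (37.3% of all placeable promoters), 15 in DCs after LPS (40.6%), 11 in non-stimulated fibroblasts (39.5%), 11 in fibroblasts after TNF-α (44.1%) and 14 in the S5P library (48.6%). Their median NDR log2 ratios were −1.70 and −1.66 in the DC sets, −1.33 and −1.27 in the fibroblast sets and −1.51 with S5P, against −0.56, −0.65, −0.63, −0.73 and −0.93 for all placeable promoters. In mean occupancy, where 1 is the mean of the library, these 20 promoters had 1.02 in the flank and 0.312 in the NDR window in non-stimulated DCs, while all placeable promoters had 1.04 and 0.706. In non-stimulated fibroblasts the values were 1.04 and 0.436 for histone promoters and 1.03 and 0.682 for all. A total of 7 were depleted in all 4 pooled sets: Hist1h1e and Hist1h1c, which encode linker histones, Hist1h3i, which encodes H3, and Hist1h4b, Hist1h4c, Hist1h4d and Hist1h4f, which encode H4. With S5P, 6 of the 7 were depleted too and Hist1h4c gave −0.79, whereas Hist1h3g and Hist1h1t were depleted in no pooled set. The share of all placeable promoters depleted in all 4 pooled sets was not computed, so these joint counts have no background beside them.

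**Figure D2:**
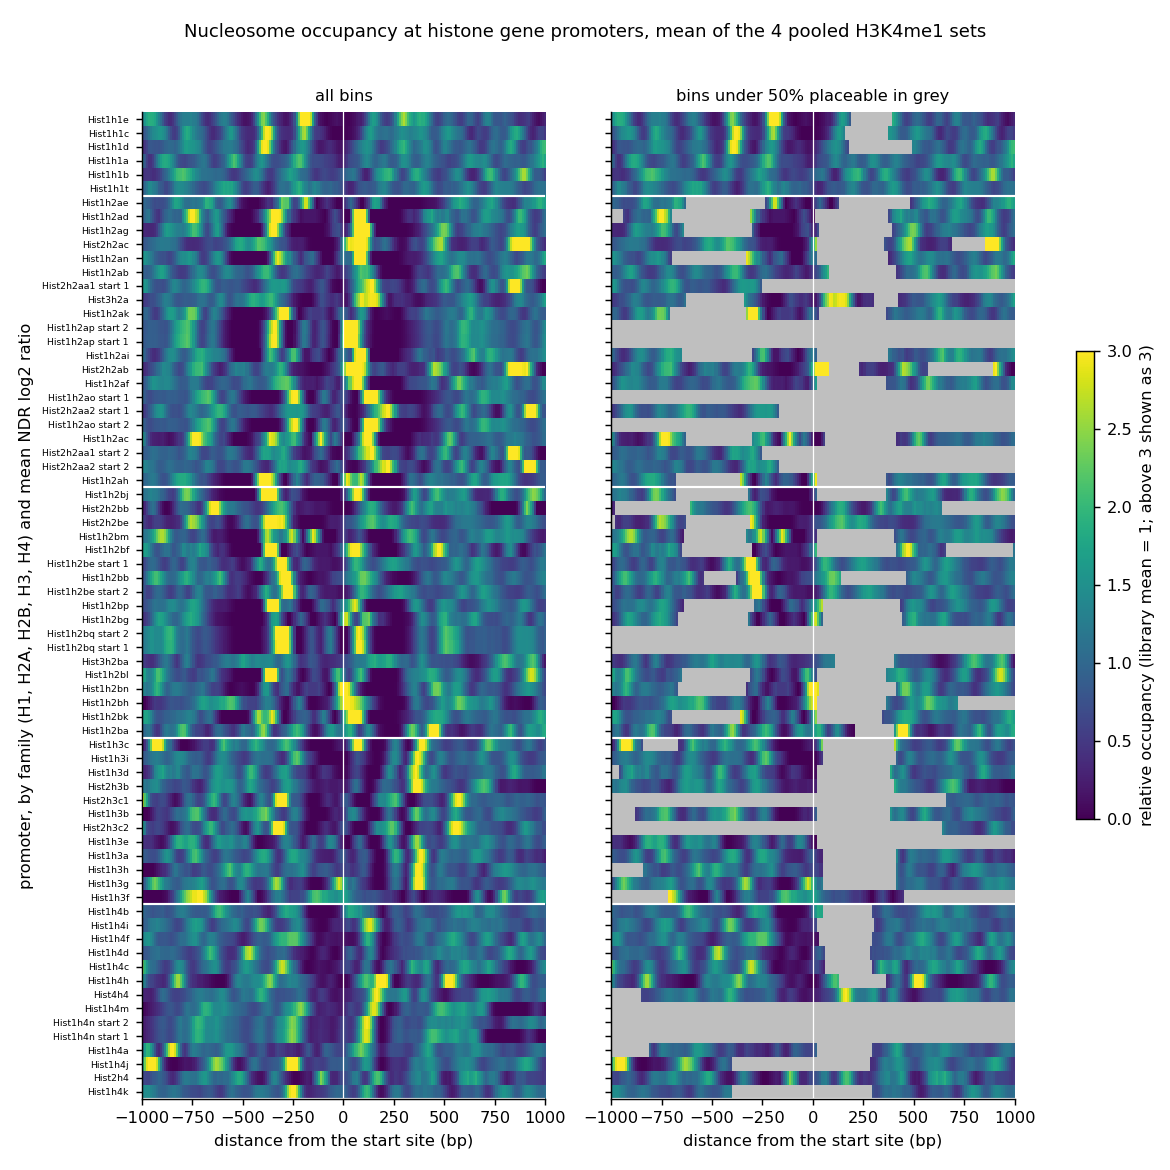
Relative occupancy (colour, library mean = 1, shown up to 3) of the 71 histone promoters against distance from the start (bp), as the mean of the 4 pooled H3K4me1 sets, ordered by family and NDR log2 ratio. The right plot greys bins under 50% placeable. Most rows are dark just upstream of the start, and most of the sharp bands at 0 to 100 bp and the dark stretches from 100 to 300 bp of H2A and H2B fall in grey bins.

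The single H3K4me1 libraries of fibroblasts gave a less regular picture. Of the 20 placeable members, 8 and 12 were depleted in control libraries without stimulus (replicates 1 and 2, beside 31.1% and 41.4% of all placeable promoters), 6 and 5 in control libraries after TNF-α (32.6% and 41.8%), 8 and 6 in knockdown libraries without stimulus (31.4% and 34.3%) and 12 and 11 in knockdown libraries after TNF-α (40.3% and 41.1%). The S7P libraries had 5 each (34.0% and 30.5%). Median NDR log2 ratios of these 20 ran from −2.22 (control without stimulus, replicate 2) to 0.02 (knockdown without stimulus, replicate 2), and those of all placeable promoters from −0.63 to −0.39. H3K4me1 replicates of 1 group differed at a placeable histone promoter by a median of 0.92 to 2.09 on the log2 scale, and at a promoter of any gene by 0.82 to 0.95. The NDR window held no fragment at 18 to 36 of the 71 members in a single library, beside 12.6% to 26.2% of all promoters. In a pooled set it was empty at 1 to 22 members, beside 7.22% to 19.2% of all promoters. An empty window sets the NDR log2 ratio near its lowest possible value where the flank is filled and to 0 where that is empty too. The median of all 71 members lay below that of all promoters in 7 of the 15 libraries: the 4 pooled sets, S5P, control without stimulus replicate 2 and knockdown after TNF-α replicate 1. The part of empty bins in this difference between pooled and single libraries was not tested.

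**Figure D3:**
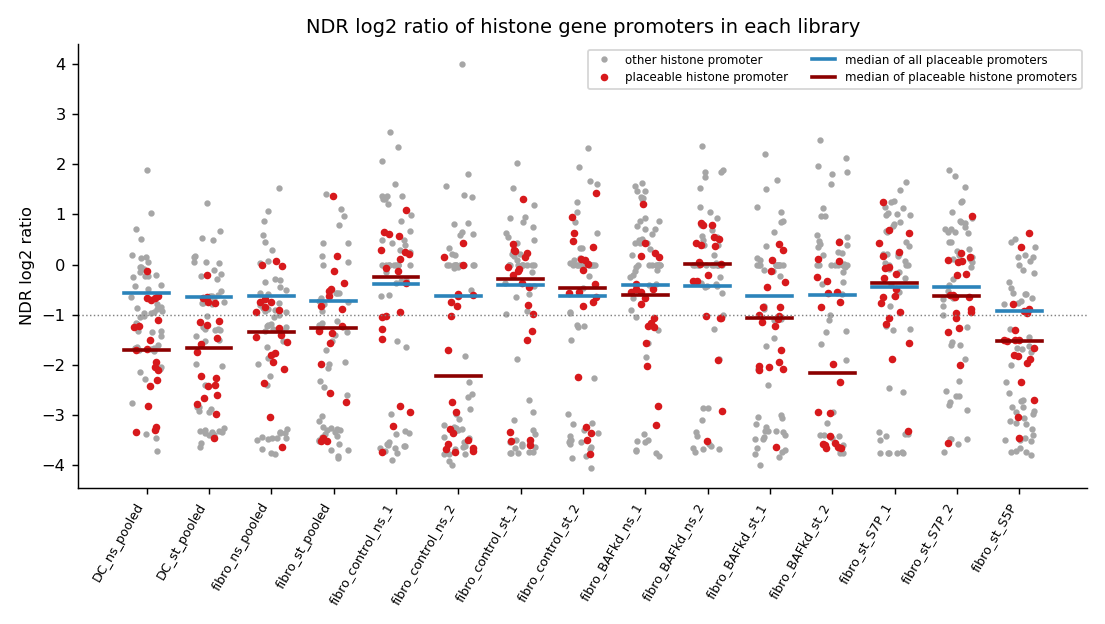
NDR log2 ratio of each of the 71 histone promoters (points, vertical axis) in each of the 15 libraries, with the medians of the 20 placeable histone promoters (dark red bars) and of all placeable promoters (blue bars) and a dotted line at −1. In the pooled sets and with S5P the dark red bar lies under the blue one, while in single libraries its place varies from −2.22 to 0.02.

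**Figure D4:**
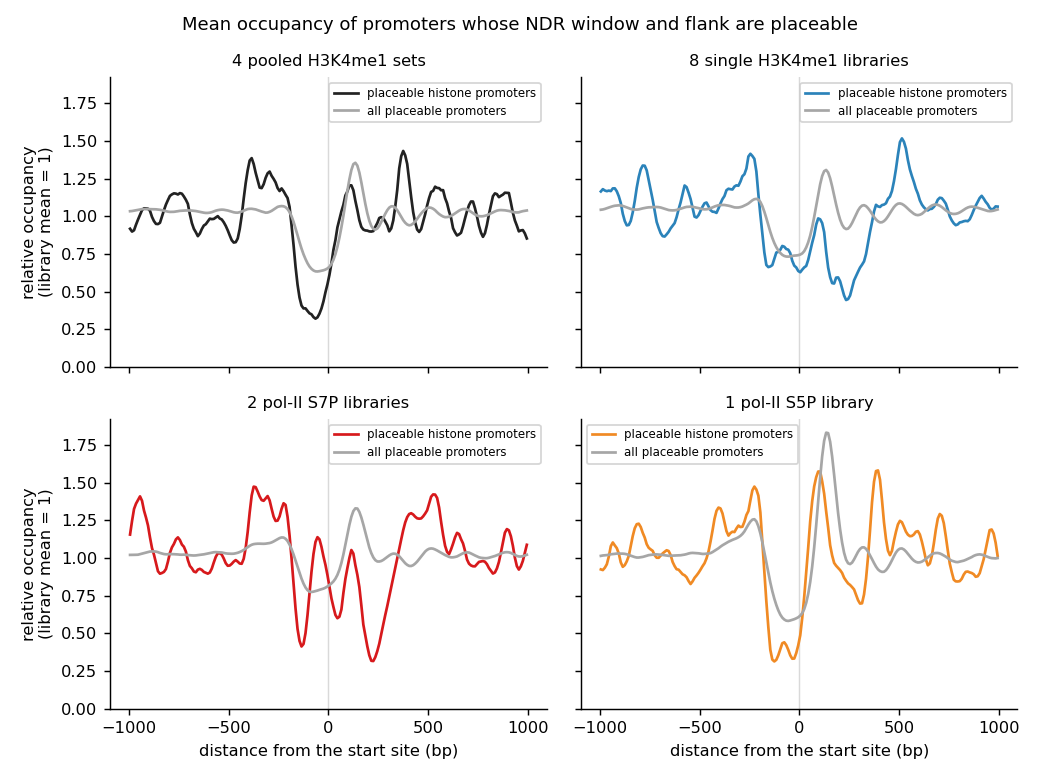
Mean relative occupancy (library mean = 1) against distance from the start (bp) for the 20 placeable histone promoters (coloured) and the 10907 placeable promoters of all genes (grey), averaged over the libraries of each kind. In the pooled sets the histone curve lies under the grey curve from −150 to 0 bp, and the single and S7P libraries show another low stretch from 100 to 300 bp, where few member bins are placeable.

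The H1 genes can be followed best, since their upstream windows were fully placeable. Hist1h1e (chr13:23714427, minus strand, score 328) had NDR log2 ratios of −2.30 and −2.77 in DCs without and with LPS, −1.55 and −1.98 in fibroblasts without and with TNF-α, and −1.97 with S5P. Hist1h1c gave −1.70, −2.42, −1.41, −2.74 and −2.70, and Hist1h1d −2.42, −2.65, −1.44, −0.82 and −1.79. These 3 promoters were thus low in every DC set and, but for Hist1h1d after TNF-α, in every fibroblast set. Hist1h1a was at −2.09 and −1.14 in the DC sets, at −0.75 and −0.52 in the fibroblast sets and at 0.62 with S5P, and Hist1h1b gave −0.67, −1.59, −0.85, −0.13 and −1.81. Hist1h1t, a linker histone gene of male germ cells, gave −0.13, −0.21, −0.02 and −0.49 in the pooled sets and 0.36 with S5P. It was the highest of the 6 in both DC sets and in non-stimulated fibroblasts, but below Hist1h1b in fibroblasts after TNF-α and below Hist1h1a with S5P. Its annotated expression was 0 in both cell-types, against 4.75 FPKM or more in DCs for each of the other 5. In the 8 single libraries Hist1h1e ranged from −3.50 to 0.38 and Hist1h1t from −3.71 to 0.62, so that the 2 overlapped there.

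The other testis genes, Hist1h2aa and Hist1h2ba, form a head-to-head pair 307 bp apart (H2A and H2B). They sit at the edge of the coverage limit, with scores of 88 (below it, as Hist1h2bc is) and 103.5 (just above it). Hist1h2ba gave NDR log2 ratios of −1.61, 0.53, 0.58 and 0.16 in the 4 pooled sets, Hist1h2aa 1.07, −3.26, 0.24 and 0.27, and Hist1h2bc 2.20, 0.26, −2.94 and −0.40. These values change sign between sets.

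Among the core histones the family medians were close. In non-stimulated DCs the median NDR log2 ratio was −1.90 for H1 (6 promoters), −1.22 for H3 (12), −1.13 for H4 (14), −0.92 for H2A (21) and −0.90 for H2B (18), and in non-stimulated fibroblasts −1.13, −1.45, −1.48, −0.94 and −0.97. Within each family the range was wider than these differences, for instance −3.32 to −0.09 for H4 in non-stimulated DCs. The lowest H2A promoter, Hist1h2ae, was at −2.75 and −3.62 in the DC sets and at −0.51 and −3.80 in the fibroblast sets, and its divergent partner Hist1h2bg, 181 bp away, gave −0.23, −0.74, −0.36 and −3.28. The lowest H2B promoter, Hist1h2bj, gave −2.13, −3.29, −3.28 and −3.0, and its flank was 64.0% placeable. For H3 the lowest, Hist1h3c, gave −3.72, −3.34, −3.77 and −2.06, and the highest, Hist1h3f, gave 1.03, 0.48, 0.08 and 1.4. For H4 the lowest, Hist1h4b, gave −3.24, −1.20, −3.03 and −3.52, and the highest, Hist1h4k, −0.09, −1.51, 0.03 and −0.02, with an NDR window only 33.3% placeable. The highest H2A promoter, Hist1h2ah, lay between −0.92 and 0.46 and the highest H2B promoter was Hist1h2ba. Of the genes named in this paragraph only Hist1h4b is among the placeable members. The pooled values of the others may be those of several genes together.

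DCs and fibroblasts were compared to see whether the cell-types open these promoters differently. With limma over the 4 pooled sets no histone promoter was called at an adjusted p of 0.05, nor was any promoter of any gene (0% called), while 791 promoters of all genes (5.83%) and 4 members (Hist1h2bl, Hist1h3d and both starts of Hist1h2bq) had an unadjusted p below 0.05. The 2 starts of Hist1h2bq are copies whose profiles correlated with r of 0.999 in each pooled set, so they are not separate results. Each pooled set is the only one of its group and the stimuli differ between the cell-types, so limma borrows the spread across promoters. The SE and p-values of this comparison therefore do not measure the spread between replicates. The median difference of DCs to fibroblasts was 0.02 over 71 members and 0.08 over all promoters. Over the 20 placeable members it was −0.63, with lower NDR log2 ratios in DCs at 12, from −2.38 to 1.12. Hist1h4h had the lowest difference, with −3.32 and −2.97 in DCs and −0.91 and −0.62 in fibroblasts (difference −2.38 ± 1.24, SE, adjusted p = 0.768, limma). Hist1h4h was picked by these same pooled values, so the lack of overlap between its 2 cell-types there adds no support. In single fibroblast libraries it ran from −3.64 to 0.83. Both starts of Hist1h2ap followed (−2.08 and −2.04) in bins that are 0% placeable. The largest positive difference belonged to Hist1h2bl, with 0.71 and 1.22 in DCs and −1.18 and −3.42 in fibroblasts. The difference was 3.27 ± 0.82 (SE, adjusted p = 0.768, limma). Hist1h2bl too was picked by these same pooled values, so the lack of overlap between its cell-types adds no support. It is not among the placeable members, so its pooled values may be those of several genes together. Both starts of Hist1h2bq came next (2.45 and 2.5). For the patterning level, which sums occupancy times the mean profile of active promoters, 5 promoters of all genes were called (0.0369%), none of them a member, and 9 members and 1204 of all promoters had an unadjusted p below 0.05.

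**Figure D5:**
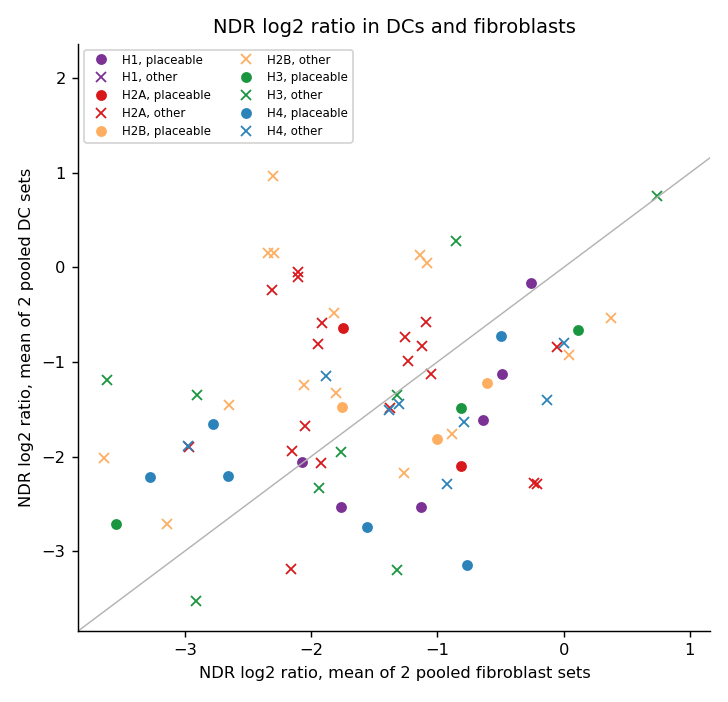
NDR log2 ratio of each of the 71 histone promoters as the mean of the 2 pooled DC sets (vertical axis) against the mean of the 2 pooled fibroblast sets (horizontal axis), coloured by family, with circles for the 20 placeable members and crosses for the others. Of the 20 circles 12 lie below the grey line of equal values.

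The annotated expression of histone genes differed between the cell-types, in units that cannot be compared with those of the NDR. Members above score 100 had a median of 27.2 FPKM in DCs, beside 0.235 for other promoters, and 69 of 71 (97.2%) exceeded 0.02 of the mean over promoters, taken here as active, beside 61.6%. In fibroblasts the median was 0.000138, beside 1.26, with 35 of 71 listed at 0 and 5 (7.04%) above the limit, beside 47.8%. The fibroblast mean behind this limit includes a promoter at 698015 FPKM, while the highest in DCs was 4677, and its part was not tested. These values are public RNA-seq data on scales that differ, and the part of poly(A) selection in the low fibroblast values was not tested. Highest in DCs were H3 (median 68.3 FPKM) and H4 genes (64.9), then H2A (50.4), H2B (17.3) and H1 (5.50).

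Responses to stimulation were asked next. In pooled DCs the NDR log2 ratio after LPS was higher by over 1 at 9 members (12.7%, beside 13.7% of all promoters) and lower by over 1 at 20 (28.2%, beside 19.5%), without replicates and hence without a test. Of the 20 placeable members 2 were higher and 3 lower by this margin, with a median difference of −0.07, beside −0.08 for all placeable promoters. In pooled fibroblasts after TNF-α, 17 members were higher (23.9%, beside 14.3%) and 23 lower by over 1 (32.4%, beside 21.7%), and of the placeable ones 1 and 5, with a median of −0.02, beside −0.09. For both stimuli the share of all placeable promoters past 1 was not computed, so the placeable counts have no background beside them. In single libraries limma called no promoter after TNF-α (0%), with an unadjusted p below 0.05 at 4 members and 752 of all promoters. The lowest was Hist1h2bj, whose control libraries gave 2.34 and −2.64 without and −2.70 and −3.30 with TNF-α and whose knockdown libraries gave 0.86 and 1.15 without and −3.03 and −3.46 with it (−3.55 ± 1.10, SE, adjusted p = 0.870, limma). The patterning level likewise gave no call (0%), with an unadjusted p below 0.05 at 2 members and 765 of all promoters.

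BAF is a remodelling complex that moves or ejects nucleosomes with the energy of ATP, and Brg1 and Brm are its alternative motor subunits. Knockdown moved no promoter past the threshold in NDR log2 ratio or patterning level (0% in both, limma), with an unadjusted p below 0.05 at 6 members and 711 of all promoters for the first and at 4 members and 793 for the second. Of the 71 members 33 were higher and 29 lower in NDR log2 ratio, and the rest were at exactly 0 because window and flank were empty. The members' median falls on these empty ones and is not a measured lack of change. Median differences in NDR log2 ratio were 0 over the 71 members and over all promoters, and −0.03 over the 20 placeable members, with 9 higher and 11 lower. The last value rested on single libraries: it was −0.39 (14 lower, 6 higher) without replicate 2 of the control without stimulus, 0.34 (5 lower, 15 higher) without replicate 2 of the knockdown after TNF-α and 0.41 without replicate 2 of the control after TNF-α, and it was above 0 in 6 of the 8 omissions. The largest in size was Hist1h2bl, whose control libraries gave −3.30 and −3.28 without and −3.60 and 2.32 with TNF-α, against 1.32 and 1.89 without and 1.68 and 1.84 with TNF-α after knockdown (3.65 ± 1.24, SE, adjusted p = 0.9, limma). The groups overlap at 1 control library, replicate 2 after TNF-α. The next, Hist1h3d, an H3 gene, gave −3.90, −4.00, −3.63 and −3.35 in the control libraries and 0.32, −0.25, −3.32 and 0.24 after knockdown (2.97 ± 0.91, SE, adjusted p = 0.9, limma). The groups did not overlap, although the lowest knockdown library and the highest control library lay next to each other. As the gene was picked for this difference, the lack of overlap adds no support. Both genes have NDR windows that are 86.4% placeable.

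The test of whether knockdown alters the TNF-α response also called no promoter (0% for NDR log2 ratio and for patterning level, limma), with an unadjusted p below 0.05 at 5 and 6 members and at 789 and 767 of all promoters. The fitted interaction in NDR log2 ratio had a median of −0.77 over the 71 members and of −0.16 over all promoters. Of the 71, 42 lay below and 20 above 0, and the rest, with empty windows and flanks, lay at exactly 0. Over the 20 placeable members the interaction had a median of −1.72, with 18 below 0. The share of all promoters below 0 in this fit was not computed, so these counts have no background beside them. Neighbouring members share windows, so these 20 are not independent. Their medians by library were −0.25 and −2.22 (control without stimulus), −0.29 and −0.46 (control after TNF-α), −0.60 and 0.02 (knockdown without stimulus) and −1.06 and −2.15 (knockdown after TNF-α). The median interaction of the placeable members was −0.34 within replicate 1 (14 below 0) and −3.08 within replicate 2 (18 below 0). Of the 10907 placeable promoters of all genes, 5908 and 5829 were below 0, with medians of −0.18 and −0.17, and of the 13559 promoters 7225 and 7147. The members' median over both replicates was −1.10 when replicate 2 of the control without stimulus was left out, with 14 of 20 below 0. The deposited table names mark both knockdown libraries of replicate 1 with 4 U and the other 6 with 12 U, a mark that the sources used here do not explain, and its part in these values was not tested.

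Pol-II libraries select chromatin by the polymerase carrying a phosphate at serine 7 or serine 5 of its tail, the second typical of polymerase near the start. Between S7P and the control H3K4me1 libraries after TNF-α no promoter was called in NDR log2 ratio or patterning level (0% in both, limma), with an unadjusted p below 0.05 at 8 members and 1273 of all promoters and at 2 members and 821 of all. The 8 include Hist1h4m, Hist1h4n start 1 and Hist1h2bq start 2, which held no fragment in the control libraries. Their control value was 0 without spread, so these p-values do not measure a difference of occupancy. The median difference was 0.22 over the 71 members, 0.14 over the 20 placeable members and 0.18 over all promoters. The median of the placeable members changed sign with 1 library: it was −0.18 and −0.06 without replicates 1 and 2 of the control, and −0.12 and 0.36 without replicates 1 and 2 of S7P. S5P has 1 library in the labels and no test, although the study's reporting summary lists 2 S5P replicates, so that the deposited values may pool them. Its NDR log2 ratio exceeded that of the mean control library by over 1 at 8 members (11.3%, beside 19.4%) and was lower by over 1 at 31 (43.7%, beside 24.7%). The 31 include Hist1h4m, both starts of Hist1h4n and of Hist1h2bq, and start 2 of Hist1h2ap and of Hist1h2ao. Their control value was 0, which is set where window and flank are empty, so their differences measure S5P alone. Among placeable members 1 was higher and 9 were lower, with a median difference of −0.66, beside −0.07 for all placeable promoters. The share of all placeable promoters past this margin was not computed, so these 2 counts have no background beside them. Hist1h4d, an H4 gene picked after its values were seen, gave −3.45 with S5P, −0.45 and −0.57 in the control libraries after TNF-α, and 0.25 and −0.88 with S7P. The antibody goes together with the type of sequencing (paired-end for pol-II and single-end for H3K4me1), and these cannot be told apart.

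Genes that work with the histone genes were taken as lists for comparison. Of 11 promoters above score 100 for histone gene expression and mRNA processing (such as Npat, which activates histone genes at S phase, and Slbp, which binds the stem-loop), 6 were depleted in non-stimulated DCs and 7 in non-stimulated fibroblasts, with medians of −1.29 and −2.66. Of 10 for histone chaperones, which carry histones to chromatin, 6 and 7 were depleted, with medians of −1.34 and −1.64. Of 8 for replication-independent histone genes, whose products replace histones outside S phase, 2 and 3 were depleted, with medians of −0.38 and −0.86. After LPS in DCs and TNF-α in fibroblasts 3 and 5 of these 8 were depleted, with medians of −0.86 and −2.39. The counts were then 7 and 7 for histone gene expression and mRNA processing, and 6 and 7 for chaperones. Of all promoters 36.8% and 38.3% were depleted without stimulus, and 39.8% and 42.6% after it, in DCs and fibroblasts. No promoter of these lists was called in any of the contrasts with a test. NDR log2 ratios of 15 start rows of DC markers were lower in DCs at 10, with a median difference of −0.44, and those of 7 fibroblast marker rows at 3, with 0.43.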

How the data were processed

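ChIP-MNase data of mouse DCs and 3T3 fibroblasts were used. The authors aligned reads to mm9 (the submitters' processing notes name Bowtie2 and bedtools) and deposited, per library, an occupancy signal around 25881 refGene starts in bins of 10 bp over 2 kb, relative to the surrounding region and smoothed over 50 bp. An empty bin was read as 0. Read depth cannot be recovered from this signal. The deposited score counts fragments around each start, and the deposited FPKM values come from public RNA-seq. The 2 columns holding the authors' own cell-type comparisons were not used. In the text, the deposited signal was divided by the mean of each library.

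The members and lists were chosen with earlier results of these data known. Symbols were matched for 25383 rows through RefSeq. The NDR log2 ratio used a pseudocount of 0.1 and promoters with a score above 100. Tests were limma 3.58.1 (R 4.3.3) across all these promoters with Benjamini-Hochberg adjustment, two-sided, at 0.05 (eBayes with trend). The 4 pooled sets were fitted with stimulation as a covariate, the 8 single H3K4me1 libraries with knockdown and stimulation, and S7P with the TNF-α-treated control libraries, and the script was tested on simulated data. Contrasts of 1 set or library per side have no test. Placeability was computed with bwa 0.7.19 over 396 Mb, and 143 start rows lie on sequences outside the genome file. Only sequence near starts was searched, so copies elsewhere are missed.

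Named genes were, by rule, the lowest and highest member of each family by mean NDR log2 ratio over the pooled sets, members called in a contrast, the 3 highest and 3 lowest differences between DCs and fibroblasts, members next to the score limit, testis genes, the 3 closest opposite-strand pairs and the 2 largest BAF knockdown differences. The remaining H1 genes, the members depleted in all pooled sets or in none, the 8 members without fragments and Hist1h4d were named after their values were seen. Alternatives covered the pseudocount, windows, score limit, scaling, template, libraries left out and placeable promoters only.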

Additional observations from a re-analysis of the deposited data

How the results depend on the processing

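No histone promoter was called in any of 143 fits. Leaving out each library in turn gave 0 to 2 promoters of all genes called for TNF-α in NDR log2 ratio (2 without replicate 1 of the TNF-α-treated control) and 0 for the BAF knockdown, the interaction and S7P in both measures and for TNF-α in patterning level. It gave 57.7% to 67.6% of members past 1 in NDR log2 ratio and 62% to 66.2% with a higher patterning level for S5P. With no filter on the score, the interaction called 2 promoters in NDR log2 ratio. The 5 promoters called between DCs and fibroblasts in patterning level became 0 with no filter, 0 with occupancy as deposited, 0 with the square root of occupancy and 17 with scores above 200. With a pseudocount of 0.5, members past 1 in either direction went from 40.8% to 14.1% for LPS, from 56.3% to 26.8% for TNF-α in the pooled sets and from 54.9% to 29.6% for S5P, and depleted members from 53.5% to 35.2% in non-stimulated DCs, from 53.5% to 35.2% in non-stimulated fibroblasts and from 63.4% to 42.3% in TNF-α-treated fibroblasts. The window from −200 to 50 bp gave 33.8% in non-stimulated DCs. Among placeable promoters, an alternative chosen after seeing the data, 25% (LPS) and 30% (TNF-α) were past 1, and, of the 7 members whose whole 2 kb window was at least 90% placeable, 85.7% had a higher patterning level after LPS, against 53.5% of all members. The number of libraries in which the members' median patterning level exceeded that of all promoters was 4, and became 7 with the square root of occupancy and 9 with placeable promoters. The cause of these shifts was not tested. For counts and shares over all promoters or members, the other 147 settings and 59 omissions of a library gave values within 1.5 times. Medians moved more: without 1 library the members' median ran from −0.893 to 0 for the interaction, from −0.0597 to 0.276 for BAF knockdown, from −0.28 to 0 for TNF-α and from 0.0759 to 0.394 for S7P in NDR log2 ratio. The replicate block called 0 promoters in each of the contrasts it could enter. The replicate numbers did not pair the libraries, since replicate differences of 2 groups correlated across promoters between −0.0173 and 0.0284. The LPS and TNF-α differences of pooled sets have 1 set per side, and between DCs and fibroblasts each pooled set is the only one of its group, so no replicate was left out there. The NDR window was empty at up to 36 of 71 members and up to 26.2% of all promoters in a single library, and what depth and unplaceable sequence each contribute was not tested.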
